A study of Mus musculus with 18 samples.

Results

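The subject is the transcripts of amino acid transporters in mouse mammary organoids, small 3-dimensional cultures of mammary epithelium. The genes were chosen by name: symbols of the solute carrier families Slc1a, Slc3a, Slc7a, Slc36a, Slc38a and Slc43a, with at least 10 raw counts over 18 libraries and counts in all 6 groups. Of 55536 genes in the deposited table, 42 carry such a symbol and 32 met both conditions. They are 9 Slc7a, 9 Slc38a, 5 Slc1a, 4 Slc36a, 3 Slc43a and 2 Slc3a genes. Another 5 had fewer than 10 counts (Slc7a9, Slc7a12, Slc7a13, Slc7a14 and Slc7a15), and 5 lacked counts in at least 1 group (Slc1a6, Slc1a7, Slc7a10, Slc38a8 and Slc38a11).

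The organoids were grown from mammary glands of C57BL/6 mice aged 6 to 7 weeks, either wild type (WT) or RasGRP1-/- (KO), which lack a Ras exchange factor. All cultures were treated for 5 days in matrigel, a gel of basement membrane proteins. Their base medium, DMEM/F12, also held insulin, selenium and transferrin. EGF medium held 2.5 nM EGF. RW medium held 0.1 nM NGS-Wnt, a surrogate Wnt ligand, and 8.3 nM Rspo2, which strengthens Wnt signals. ERW medium held all 3 factors at these doses. Each of the 6 groups of genotype and medium has 3 libraries, 1 from each of 3 batches, and libraries are numbered here by batch. The sources used here do not say how many mice gave a batch, whether the null allele is confined to some cells or which part of the gene it lacks.

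Many amino acid transporters sit in the plasma membrane or the lysosome, and many work as exchangers, sodium-coupled carriers or proton-coupled carriers. The mammary epithelium is known for its large demand for amino acids, which it turns into milk protein. Several of the light chains of the Slc7a family reach the membrane only when bound to the heavy chain encoded by Slc3a2 (CD98), and the leucine and glutamine that such carriers exchange feed the kinase mTORC1. Expression of a number of these genes is induced when amino acids run short, through the transcription factor ATF4.

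Libraries held 24290097 to 31269899 counts, of which mitochondrial genes took 1.28% to 2.54%. Rasgrp1 had 145 counts summed over the 9 WT libraries and 25 over the 9 KO libraries. Luminal markers (12 genes, among them Krt8, Krt18 and Epcam) summed to 5349 to 8392 CPM (counts per 1000000, with library sizes scaled by the TMM method) across all libraries, basal markers to 4634 to 10386 CPM, and lymphocyte markers to 0.427 to 6.65 CPM, with the B cell gene Ms4a1 at 0 in every library. In such bulk samples, fewer cells of a type and less RNA per cell cannot be told apart.

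Per length, the heavy chain led. Slc3a2 stood at 105 CPM per kilobase of exon averaged over the 18 libraries, 31% of the sum over the 32 genes. Next came the leucine exchanger gene Slc7a5 (47.0), Slc38a10 (39.8), the glutamine carrier gene Slc38a2 (38) and the lysosomal glutamine exporter gene Slc38a7 (16.2). These 5 genes made up 72.6% of the summed level per length. Slc38a10 and Slc38a2 lay close together, and their order differed between groups. At the other end, 7 genes averaged under 0.5 CPM per kilobase: Slc1a2, Slc7a3, Slc43a1, Slc38a5, Slc3a1, Slc38a4 and Slc36a3. Exons of 9 members overlap a gene on the other strand, and the strand setting of the counting is not given in the sources used here, so reads of such a pair cannot be told apart. The overlapping gene was the higher of the pair for Slc3a1 (0.253 CPM against 32.9 for Prepl) and Slc7a7 (11.4 against 98.7 for Oxa1l).

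**Figure D1:**
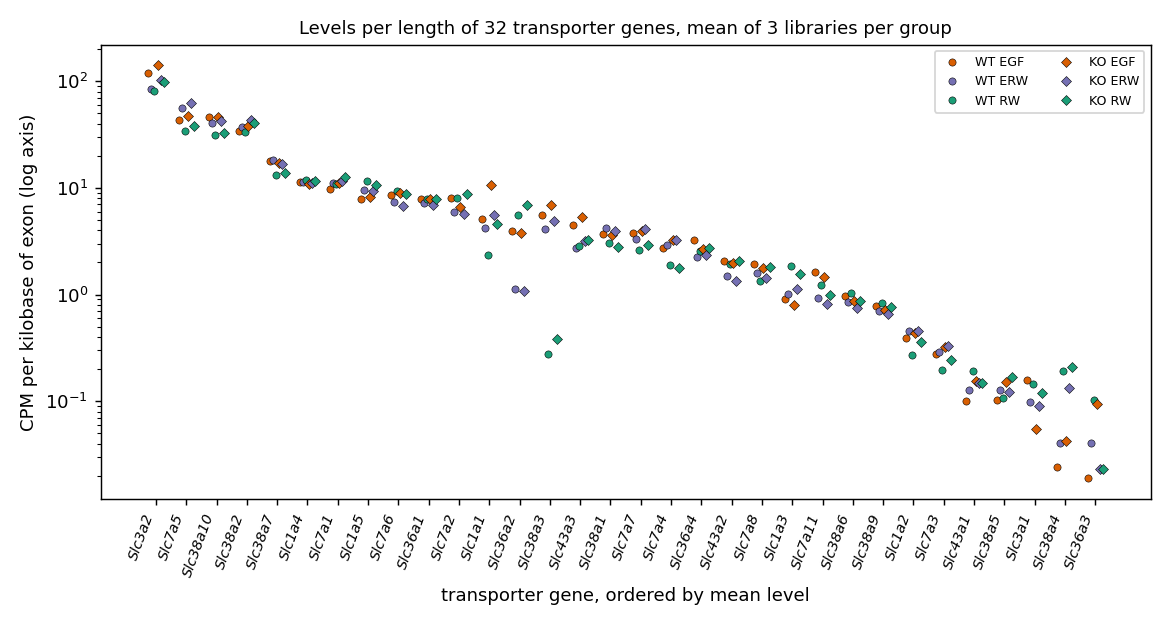
Mean level of each of the 32 transporter genes in each group, in CPM per kilobase of exon on a log axis, with genes ordered by their mean over all libraries and 3 libraries behind each point. Slc3a2 is highest in every group, and Slc38a3 and Slc36a2 show the widest gaps between media among genes above 1 CPM per kilobase.

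Media were compared within each genotype, to ask how the transporters differ between EGF and Wnt-driven growth. In EGF against RW medium, 6 genes rose and 2 fell in WT, and 6 rose and 1 fell in KO. When EGF was added to RW medium (ERW against RW), 5 rose and 4 fell in each genotype. When the Wnt factors were added to EGF medium (ERW against EGF), 1 rose and 6 fell in WT, and 1 rose and 5 fell in KO. A call is an adjusted p under 0.05 in edgeR's quasi-likelihood test with batch in the model, over 17092 genes, of which 31 are members; Slc36a3 had too few counts to be tested. Among all genes tested, 15.4% were called in EGF against RW in WT and 13.5% in KO, 10.7% and 12.7% in ERW against RW, and 15.6% and 11.6% in ERW against EGF. The members called were 25.8% and 22.6%, 29.0% and 29.0%, and 22.6% and 19.4% in the same order. By direction, 8.52% of all genes rose and 6.92% fell in EGF against RW in WT, and 7.55% and 5.94% in KO. In ERW against RW 4.92% rose and 5.82% fell in WT, and 6.1% and 6.65% in KO. In ERW against EGF 6.85% rose and 8.78% fell in WT, and 5.17% and 6.48% in KO.

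The median log2 difference of the 31 members was 0.28 in WT and 0.02 in KO for EGF against RW, -0.07 in both genotypes for ERW against RW, and -0.14 and -0.10 for ERW against EGF. Over all genes the 6 medians lay between -0.02 and 0.00. The 3 comparisons within a genotype share libraries. The WT and KO comparisons do not, though they share batches: 6 members were called in both genotypes in EGF against RW (75.0% of the WT and 85.7% of the KO calls), 7 in ERW against RW (77.8% of each) and 5 in ERW against EGF (71.4% and 83.3%), every one of them with the same sign. In all, 15 members were called in at least 1 comparison and 16 in none. Without the batch term the calls came to 2, 1 and 0 in each genotype, which are Slc38a3 in both comparisons with RW and Slc38a10 in EGF against RW. Shares over all genes are not given here for calls in both genotypes, in at least 1 comparison or without the batch term. Whether the members differ from other genes in these counts was not tested. By the authors' deposited table, 7 members rose and 2 fell in EGF against RW in each genotype, 6 rose in WT, 5 in KO and 4 fell in each in ERW against RW, and 1 rose in each and 8 and 6 fell in ERW against EGF. Among all genes with a value in the authors' deposited table, 20.0%, 13.7% and 20.5% were called in WT and 18%, 15.6% and 16.2% in KO.

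**Figure D2:**
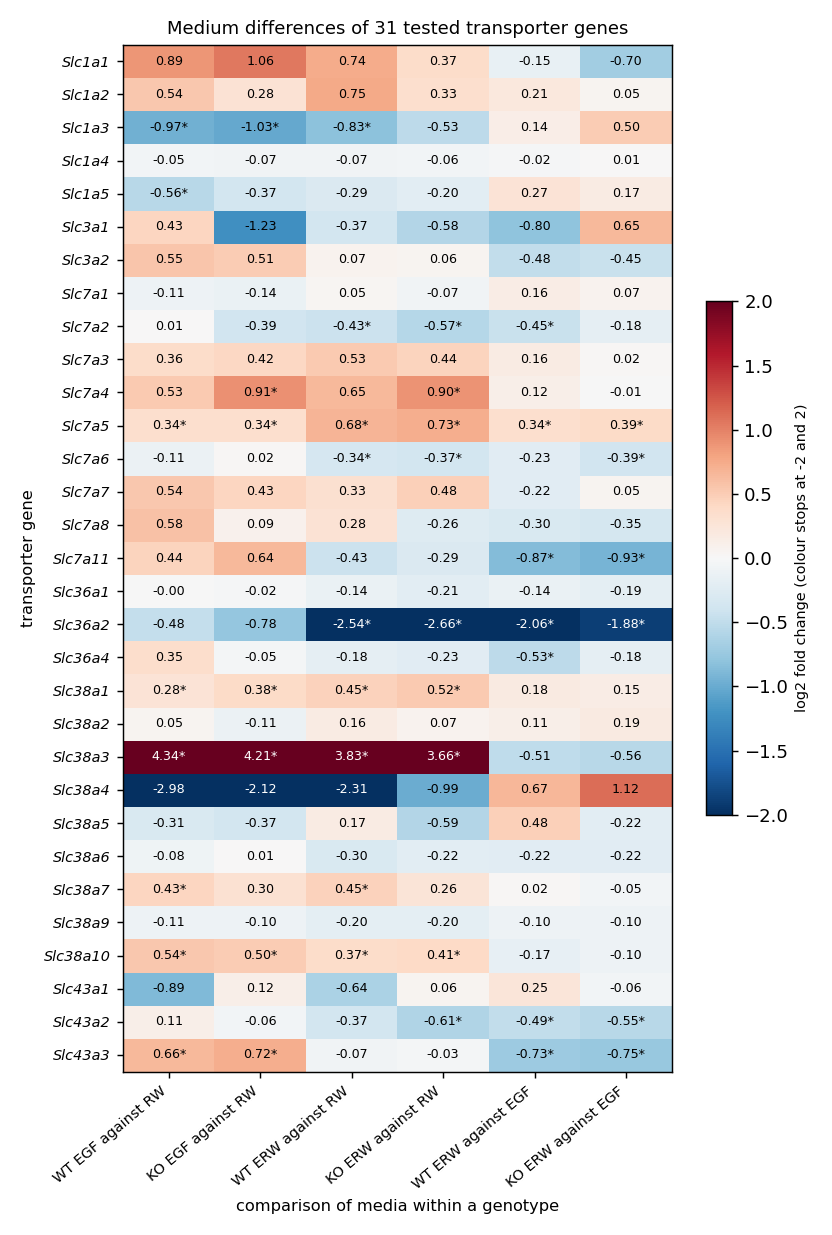
Log2 fold changes of the 31 tested genes in the 6 comparisons of media, with an asterisk where the edgeR adjusted p was under 0.05; red is higher in the first medium named, blue lower, and the colour stops at 2 in either direction. Slc38a3 stands out against RW medium and Slc36a2 in ERW medium, while Slc7a5 is marked in all 6 columns.

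Slc38a3 encodes SNAT3, a sodium-coupled glutamine carrier best known from liver, kidney and astrocytes (chromosome 9, 107650634 to 107669530 on GRCm38). In EGF medium it stood at 36.9, 17.4 and 34.5 CPM in the WT libraries of batches 1, 2 and 3, and at 48.7, 21.4 and 39.2 CPM in the KO libraries. In ERW medium the values were 31.3, 10.6 and 22.8 CPM in WT and 40.9, 12.7 and 23.9 CPM in KO. In RW medium they were 1.54, 0.967 and 1.86 CPM in WT and 2.65, 0.618 and 2.84 CPM in KO. Every library with EGF was above every library without it, and the batch 2 library was the lowest of all 6 groups. The gene rose 20.3-fold in WT (log2 4.34 ± 0.22 SE, edgeR adjusted p = 1.72e-09) and 18.5-fold in KO (log2 4.21 ± 0.22, 2.29e-09) in EGF against RW, and by log2 3.83 ± 0.22 and 3.66 ± 0.22 in ERW against RW. These 4 calls held under every setting tried. ERW was below EGF in all 3 batches of both genotypes, by log2 -0.51 ± 0.18 in WT and -0.56 ± 0.18 in KO, which edgeR did not call (adjusted p = 0.0622 and 0.0540) and DESeq2 did (0.0318 and 0.0221).

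Of the other Slc38a genes, 3 were called and 5 were not. Slc38a10 rose against RW in all 4 comparisons, from 202 ± 11.2 CPM in WT RW to 293 ± 38 in EGF (SD, n = 3; log2 0.54 ± 0.06) and 260 ± 17 in ERW (0.37 ± 0.06, edgeR adjusted p = 0.000796, lost without batch 1 at 0.0628). Slc38a1, which encodes the glutamine carrier SNAT1, also rose in all 4, by log2 0.28 to 0.52. Its EGF call in WT (adjusted p = 0.0328 in edgeR) was lost without the WT EGF library of batch 1 (0.133) or 3 (0.0874) or the WT RW library of batch 2 (0.199). Its EGF call in KO was lost without batch 1 (edgeR adjusted p = 0.0686) or batch 3 (0.0797). Slc38a7 was called in WT (log2 0.43 ± 0.11 in EGF and 0.45 ± 0.11 in ERW against RW) and not in KO (0.30 ± 0.11 and 0.26 ± 0.11); no difference between the genotypes in these responses was called. Those 2 calls were lost without the WT EGF library of batch 2 (0.0827) and the WT ERW library of batch 1 (0.0555). Slc38a2, which encodes SNAT2 and is known to respond to amino acid supply, stayed within log2 -0.11 to 0.19 in the 6 comparisons, with no call. Slc38a9, whose lysosomal product senses arginine for mTORC1, was within -0.20 to -0.10, also with no call. Slc38a4 was listed at 0.815 ± 0.653 CPM in WT RW and 0.104 ± 0.127 in WT EGF, at the limit of detection, and was not called.

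**Figure D3:**
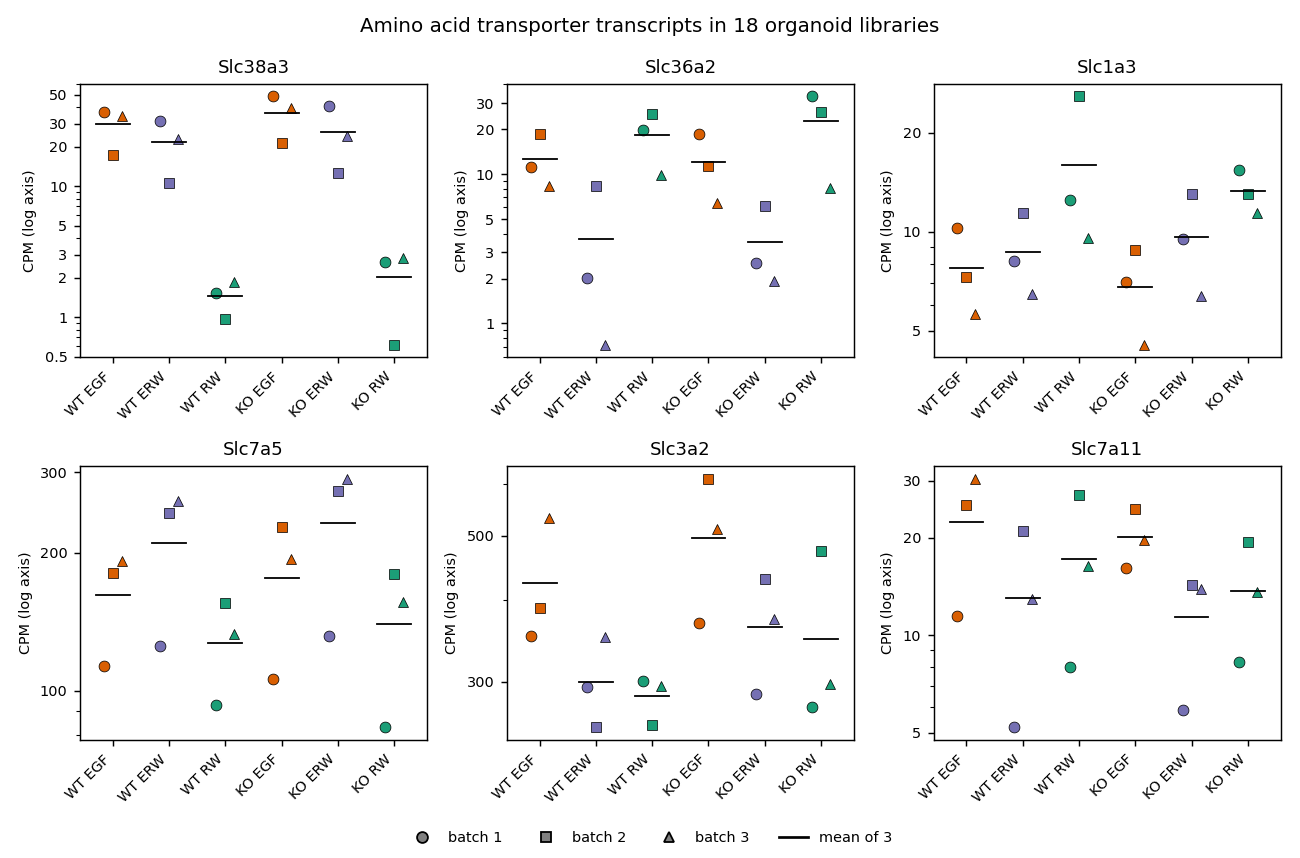
Level of 6 transporter genes in each of the 18 libraries, in CPM on a log axis; circles, squares and triangles are batches 1, 2 and 3, and bars are means of 3 libraries. Slc38a3 lies between 10.6 and 48.7 CPM in the 12 libraries with EGF. In the 6 without it, the range is 0.618 to 2.84 CPM. Groups of Slc7a5 overlap, with the order RW, EGF, ERW within each batch of each genotype. For Slc7a11 ERW lies below EGF in each batch, and the place of RW varies.

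Slc3a2 encodes the heavy chain CD98 (chromosome 19, 8706882 to 8723369). In EGF medium it stood at 352, 388 and 533 CPM in WT and 368, 611 and 512 CPM in KO for batches 1, 2 and 3. In ERW medium it stood at 294, 256 and 350 CPM in WT and 287, 430 and 374 CPM in KO. In RW medium it stood at 301, 258 and 296 CPM in WT and 275, 474 and 298 CPM in KO. EGF medium gave the highest value of the 3 media in every batch of both genotypes. The difference from RW was not called (log2 0.55 ± 0.21 in WT and 0.51 ± 0.21 in KO, edgeR adjusted p = 0.108 and 0.151), nor was that of ERW from EGF (-0.48 ± 0.21 and -0.45 ± 0.21, 0.152 and 0.211). Leaving out batch 2 gave a call for EGF against RW in both (0.0241 and 0.0163), as did leaving out the KO RW library of batch 2 in KO (0.0316).

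Slc7a5 encodes LAT1, the light chain that imports leucine and other large neutral amino acids (chromosome 8, 121881150 to 121907694). In EGF medium it stood at 113, 181 and 192 CPM in WT and 106, 227 and 194 CPM in KO. In ERW medium it stood at 125, 245 and 259 CPM in WT and 132, 273 and 290 CPM in KO. In RW medium it stood at 92.8, 156 and 133 CPM in WT and 83.2, 179 and 156 CPM in KO. The groups overlapped because batch 1 was low in all of them, yet within each batch of each genotype the order was RW, then EGF, then ERW. EGF raised it over RW by log2 0.34 ± 0.10 in both genotypes (edgeR adjusted p = 0.0262 and 0.0299), and ERW raised it over EGF by 0.34 ± 0.10 and 0.39 ± 0.10 (0.0266 and 0.0163). ERW against RW gave 0.68 ± 0.10 and 0.73 ± 0.10 (0.000229 and 0.000115). This is the only member called in all 6 comparisons. The ERW against RW calls held when any library or batch was left out. The other 4 were each lost without any of 3 or 4 of the libraries compared (highest edgeR adjusted p = 0.172). Those 4 were also lost without batch 2 or batch 3 (up to 0.308), and KO EGF against RW without batch 1 as well (0.0784).

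Slc7a11 encodes xCT, the light chain that brings in cystine for glutathione in exchange for glutamate (chromosome 3, 49892526 to 50443614). It is known as an ATF4 target, so the 250 bases before its RefSeq start (GRCm38.p6, minus strand, chr3:50443614-50443863) are printed with matches to the amino acid response element TGATGNAA, or TTNCATCA on the other strand, in capitals.
Slc7a11: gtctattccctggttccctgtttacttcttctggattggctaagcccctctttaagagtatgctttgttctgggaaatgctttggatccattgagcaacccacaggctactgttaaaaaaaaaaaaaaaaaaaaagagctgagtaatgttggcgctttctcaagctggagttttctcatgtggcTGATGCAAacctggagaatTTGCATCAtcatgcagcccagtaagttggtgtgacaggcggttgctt
The 2 matches, TGATGCAA and TTGCATCA, begin 66 and 47 bases before the start and do not overlap. Among 32851 RefSeq windows of this kind 3.45% hold at least 1 match and 0.0396% at least 2. RefSeq promoters were found for 23 members, and Slc7a7 was the other member with a match wholly before a start. In Slc1a4 a match begins 4 bases before the start and runs across it. Counted by gene, 3.91% of 27025 genes hold a match wholly before a start. A match of letters says nothing by itself about binding.

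In EGF medium Slc7a11 stood at 11.5, 25.3 and 30.5 CPM in the WT libraries of batches 1, 2 and 3 and at 16.2, 24.6 and 19.7 CPM in the KO libraries. In ERW medium it stood at 5.20, 21.0 and 13.0 CPM in WT and 5.90, 14.3 and 13.9 CPM in KO. In RW medium it stood at 8.00, 27.2 and 16.4 CPM in WT and 8.25, 19.4 and 13.6 CPM in KO. ERW was below EGF in every batch, with overlap between the WT groups and none between the KO groups. The gene fell by log2 -0.87 ± 0.22 in WT and -0.93 ± 0.23 in KO in ERW against EGF (edgeR adjusted p = 0.0143 and 0.0136), and edgeR called no comparison with RW. DESeq2 called EGF against RW in KO (0.64, adjusted p = 0.0371), which edgeR did not (0.0703). Single libraries ended these calls: WT EGF of batch 3 (0.128), WT ERW of batch 1 (0.0747) or 3 (0.0651), KO EGF of batch 1 (0.0878) and KO ERW of batch 1 (0.0533) or 2 (0.0638).

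Of the other light chains, Slc7a6 (y+LAT2, which exchanges arginine for neutral amino acids) fell in ERW against RW in both genotypes and against EGF in KO, by log2 -0.39 to -0.34. Those 3 calls were lost without any of 11, 6 and 5 of the 18 libraries, with adjusted p up to 0.253, 0.0895 and 0.139. Slc7a7 (y+LAT1) and Slc7a8 (LAT2) were not called, at log2 0.54 ± 0.20 and 0.58 ± 0.23 in EGF against RW in WT (adjusted p = 0.0741 and 0.0999). Summed over these 5 light chains per length, Slc7a5 made up 69.7% ± 5.26 in WT RW, 72.5% ± 5.07 in WT EGF and 79.7% ± 6.97 in WT ERW, and 71.0% ± 7.51, 73.3% ± 7.61 and 81.1% ± 7.06 in KO (SD, n = 3). The level of Slc3a2 per length was 2.03 ± 0.285 times the summed light chains in WT EGF, 1.30 ± 0.447 in WT ERW and 1.71 ± 0.466 in WT RW. In KO the ratios were 2.23 ± 0.120, 1.41 ± 0.256 and 1.92 ± 0.334, and in both genotypes ERW medium gave the lowest mean.

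The cationic carriers, which import arginine, lysine and ornithine, split. Slc7a1 (CAT1), the highest of them per length, was within log2 -0.14 to 0.16 with no call. Slc7a2 (CAT2) fell in ERW against RW (log2 -0.43 ± 0.13 in WT and -0.57 ± 0.13 in KO) and in ERW against EGF in WT (-0.45 ± 0.13). The first WT call was lost without any of 12 libraries (adjusted p up to 0.217) and the second without any of 5 (up to 0.142), and the KO call without the ERW (0.0620) or RW (0.0642) library of batch 1. Slc7a4, a relative whose substrate is not settled, rose in KO from 7.43 ± 3.22 CPM in RW to 13.6 ± 1.27 in EGF (log2 0.91 ± 0.22) and 13.5 ± 2.12 in ERW (0.90 ± 0.22). Without batch 1 or batch 3 the first of these was lost (edgeR adjusted p = 0.0549 and 0.0623). The second was lost without the KO ERW (0.0574) or KO RW (0.0542) library of batch 1. In WT the Slc7a4 differences were 0.53 ± 0.22 and 0.65 ± 0.22 and not called by edgeR, DESeq2 called the second (adjusted p = 0.0330), and the interaction was not called. Slc7a3 averaged 0.742 to 1.23 CPM in the 6 groups with no call.

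Slc1a3 encodes the glutamate and aspartate carrier EAAT1 (chromosome 15, 8634124 to 8710764). In EGF medium it stood at 10.3, 7.30 and 5.63 CPM in WT and 7.04, 8.80 and 4.54 CPM in KO. In ERW medium it stood at 8.14, 11.4 and 6.46 CPM in WT and 9.53, 13.1 and 6.38 CPM in KO. In RW medium it stood at 12.5, 25.9 and 9.59 CPM in WT and 15.4, 13.1 and 11.4 CPM in KO. The EGF libraries all lay below the RW libraries in KO, and the WT groups overlapped, with the WT RW library of batch 2 the highest of all. The gene fell by log2 -0.97 ± 0.23 in WT and -1.03 ± 0.23 in KO in EGF against RW (edgeR adjusted p = 0.00755 and 0.00571). ERW against RW was called in WT (-0.83 ± 0.23, 0.0257) and not in KO (-0.53 ± 0.23, 0.155). Without the WT RW library of batch 2 the WT values were -0.65 (0.0739) and -0.50 (0.232). The first was also lost without the WT EGF library of batch 2 (0.0659), and the second without any WT ERW library (0.0676 to 0.119). The KO call was lost without batch 1 (0.0556) or 3 (0.172).

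Among the other Slc1a genes, Slc1a5 was called once. Slc1a5 encodes ASCT2, a glutamine exchanger often raised in dividing cells, and fell in WT from 48.3 ± 10.2 CPM in RW to 32.7 ± 4.45 in EGF (log2 -0.56 ± 0.14, edgeR adjusted p = 0.00816). This was lost without the WT EGF library of batch 3 (0.0578) or the WT RW library of batch 2 (0.0632). The KO difference was -0.37 ± 0.14 (0.0831). Its relative Slc1a4 (ASCT1) lay within log2 -0.07 to 0.01 in all 6 comparisons. Slc1a1 (EAAT3) ranged from 19.7 to 171 CPM among the 3 KO EGF libraries, and its difference of 1.06 ± 0.45 from RW there was not called (0.171).

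Slc36a2 encodes PAT2, a proton-coupled carrier of glycine and proline known as a surface marker of fat cells (chromosome 11, 55158470 to 55185077). In RW medium it stood at 19.7, 25.2 and 9.83 CPM in WT and 33.4, 26.3 and 8.09 CPM in KO. In EGF medium it stood at 11.1, 18.7 and 8.28 CPM in WT and 18.7, 11.3 and 6.46 CPM in KO. In ERW medium it stood at 2.01, 8.29 and 0.722 CPM in WT and 2.55, 6.09 and 1.94 CPM in KO. ERW was lowest in every batch, and batch 3 was lowest in every group. The gene fell by log2 -2.54 ± 0.48 in WT and -2.66 ± 0.48 in KO in ERW against RW (edgeR adjusted p = 0.00378 and 0.00253), and by -2.06 ± 0.47 and -1.88 ± 0.48 in ERW against EGF (0.0107 and 0.0229). The WT call against EGF was lost without the WT EGF library of batch 3 (0.0549), and the KO one without any of 5 libraries (0.0577 to 0.100). The WT call against RW was lost without batch 3 (0.102).

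The adipocyte markers moved with Slc36a2. All 11 that could be tested fell in ERW against RW in both genotypes, with median log2 differences of -2.77 and -2.78, and 9 of 11 fell in ERW against EGF, with medians of -2.08 and -2.07. Without the batch term none of the 11 was called, and neither was Slc36a2. The 12 markers, among them Adipoq and Fabp4, summed to 547 to 1991 CPM in WT RW, 608 to 1380 in WT EGF and 78.7 to 518 in WT ERW, and to 391 to 2155, 386 to 1304 and 76.0 to 439 CPM in KO. Over the 18 libraries Slc36a2 spanned a 46.2-fold range, from 0.722 to 33.4 CPM. As a share of the adipocyte sum it spanned 0.918% to 2.55%, a 2.78-fold range, with medians of 1.36% in EGF, 1.33% in ERW and 1.53% in RW medium (n = 6 each). The part of the adipocyte markers in the result was not tested.

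**Figure D4:**
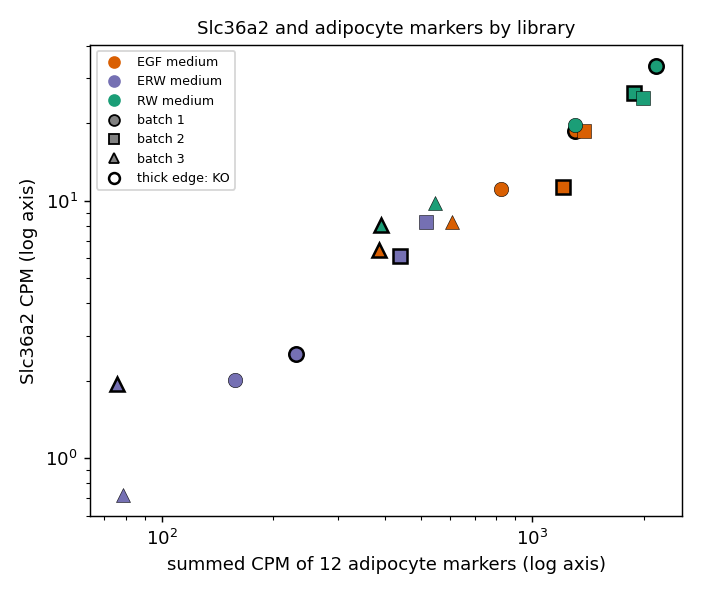
Slc36a2 in CPM against the summed CPM of 12 adipocyte markers in each of the 18 libraries, both on log axes; colours are media, symbols batches, and thick edges KO. The ERW libraries of batches 1 and 3 lie at the lower left, and Slc36a2 was 0.918% to 2.55% of the marker sum in every library.

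Of the other Slc36a genes, Slc36a1 (PAT1, a lysosomal carrier) was within log2 -0.21 to 0.00 with no call. Slc36a4 (PAT4) fell in ERW against EGF in WT, from 21.4 ± 0.731 to 14.8 ± 1.5 CPM (log2 -0.53 ± 0.12), and not in KO (-0.18 ± 0.12, edgeR adjusted p = 0.392). The difference between genotypes was not called, and the WT call was lost without batch 1 (0.0931) or 3 (0.169). Slc43a2 (LAT4, which lets out branched-chain amino acids and phenylalanine) fell in ERW against EGF by log2 -0.49 ± 0.15 in WT and -0.55 ± 0.15 in KO, and against RW in KO (-0.61 ± 0.15). Each of these was lost without any of 3 or 4 single libraries, with adjusted p up to 0.181, 0.133 and 0.0871. Slc43a3, a family member that carries purine nucleobases, was highest in EGF medium. It stood at 20.2 ± 2.65 CPM in WT EGF against 12.7 ± 1.5 in RW and 12.1 ± 1.64 in ERW, and at 23.9 ± 3.63, 14.5 ± 1.91 and 14.3 ± 4.45 in KO. The WT calls were lost without the RW library of batch 1 (0.0693) or 3 (0.0764) and without the ERW library of batch 2 (0.0518) or 3 (0.0605), and the KO call for ERW against EGF without the EGF library of batch 3 (0.0516). The KO call for EGF against RW was lost without batch 2 (edgeR adjusted p = 0.0708) or batch 3 (0.144).

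Markers of other stromal cells also fell in ERW medium, where 6 and 5 of the members fell against EGF. Of 12 endothelial markers 12 fell in ERW against EGF in WT and 6 in KO (median log2 -1.63 and -0.83), and 10 and 9 in ERW against RW (-1.15 and -1.08). Of 12 fibroblast markers 9 and 8 fell against EGF (-1.33 and -0.95) and 7 and 6 against RW (-0.90 and -0.94). The endothelial sum was 163 to 288 CPM over the 6 ERW libraries, against 406 to 641 in EGF and 346 to 731 in RW. The fibroblast sum was 828 to 1765 CPM in ERW, 1454 to 4434 in EGF and 1541 to 3934 in RW. In EGF against RW, where 6 members rose in each genotype, 1 endothelial gene rose in each (Flt1) and none fell, and 4 fibroblast genes rose and 1 fell in WT, 1 and 2 in KO. Of 12 myeloid markers Cd14, which also stands on the luminal list, was the 1 called in EGF and in ERW against RW, upward in both genotypes; in ERW against EGF 2 fell in WT and 3 in KO. Without the batch term the endothelial calls came to 7 and 0 in ERW against EGF and 3 and 4 against RW, and the fibroblast calls to 0 and 0, and 2 and 3. The part of these markers in the transporter results was not tested.

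Epithelial markers differed between media too. Of 14 milk and alveolar genes tested, 4 rose in EGF against RW in each genotype (Csn1s1, Csn3, Lalba and Prlr) and 5 in ERW against RW, and their sum was 882 to 1194 CPM in the 6 RW libraries against 1742 to 2795 CPM in the others. Slc38a3, Slc38a1, Slc38a10 and Slc7a5 rose in the same comparisons. Epidermal differentiation markers fell against RW, 11 of 12 in WT and 9 in KO in EGF and 10 and 9 in ERW, and without the batch term 10, 9, 9 and 6. Basal markers fell too, 5 of 12 in each genotype in EGF and 7 in ERW, while 1 rose in KO EGF (Oxtr) and 1 in ERW in each genotype (Igfbp2). Without the batch term 5 and 4 basal markers fell in EGF against RW, and 0 and 1 in ERW against RW. Of 12 luminal markers 3 rose and 2 fell in WT in EGF against RW, and 4 rose and none fell in KO; in ERW against RW 4 and 5 rose and 1 fell in each. The part of these shifts in the transporter results was not tested.

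Genotypes were compared over the 3 media, within each medium, and in their response to media. No member was called in any of these 7 tests by edgeR or by DESeq2. Over the media 0.339% of all genes were called. There 4 of 31 members had an unadjusted p under 0.05, as did 10.8% of all genes: Slc1a1 (log2 0.68 ± 0.27), Slc38a3 (0.32 ± 0.12), Slc43a3 (0.21 ± 0.10) and Slc38a2 (0.19 ± 0.06), each higher in KO, with edgeR adjusted p from 0.266 to 0.454. Within EGF, ERW and RW medium 0.0702%, 0.0819% and 0.0819% of all genes were called. At an unadjusted p under 0.05 there were 2, 0 and 1 members, beside 3.26%, 4.14% and 5.2% of all genes. For the response to EGF against RW, ERW against RW and ERW against EGF 0.0% of all genes were called. At an unadjusted p under 0.05 there were 2, 0 and 0 members, beside 2.08%, 1.67% and 1.79% of all genes. Leaving out batch 1 gave a call to Slc38a2 (0.30 ± 0.05, adjusted p = 0.0324), which is named here after its values were seen. Of the amino acid response genes, Chac1, a glutathione-degrading enzyme also named after its values were seen, was called over the media (0.69, adjusted p = 0.0492). Genotype held 2.44% of the variance of log2 levels summed over the members, medium 55.4% and batch 25.7%. Over all genes the shares were 4.15%, 36.8% and 30.0%. These shares pool sums of squares over genes without scaling, so genes of wide range weigh most. Among the members, Slc38a3 spanned 0.618 to 48.7 CPM and Slc36a2 0.722 to 33.4 CPM. The shares therefore do not describe a typical member.

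Several members followed batch. The batch 1 library was the lowest of all 6 groups for 5 of 31 members: Slc1a1, Slc7a1, Slc7a5, Slc7a11 and Slc38a1. Among all tested genes 9.61% had that pattern. Averaged over the 6 groups, Slc7a1 stood at 81.4 ± 5.39 CPM in batch 1, 173 ± 32.8 in batch 2 and 133 ± 6.41 in batch 3, and Slc7a11 at 9.17 ± 4.08, 22.0 ± 4.73 and 17.8 ± 6.66 CPM (SD, n = 6). Atf4, the factor of the amino acid response, had the same order at 245 ± 26.7, 549 ± 158 and 384 ± 26.3 CPM, and its target Asns, asparagine synthetase, stood at 45.2 ± 1.06, 58.4 ± 5.64 and 54.5 ± 3.20 CPM. Neither was called between media, with log2 differences of 0.00 to 0.16 in WT and -0.02 to 0.03 in KO for Atf4. Not every amino acid response gene shared this order of batches. Sesn2, named after its values were seen, was lowest in batch 3 in every group. It stood at 53.8, 62.5 and 36.1 CPM in the WT EGF libraries of batches 1, 2 and 3. The order was not counted over the whole list. Batch 2 was lowest in all groups for Slc38a3 and Slc38a10 (5.88% of all genes), and batch 3 for Slc1a3, Slc36a1, Slc36a2 and Slc38a9 (4.48%). Batch 1 was highest in all groups for Slc1a4, Slc7a2 and Slc38a9 (8.72% of all genes), batch 2 for Slc7a8 and Slc38a2 (5.41%) and batch 3 for Slc7a4 (4.96%). What differed between the batches is not given in the sources used here.

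**Figure D5:**
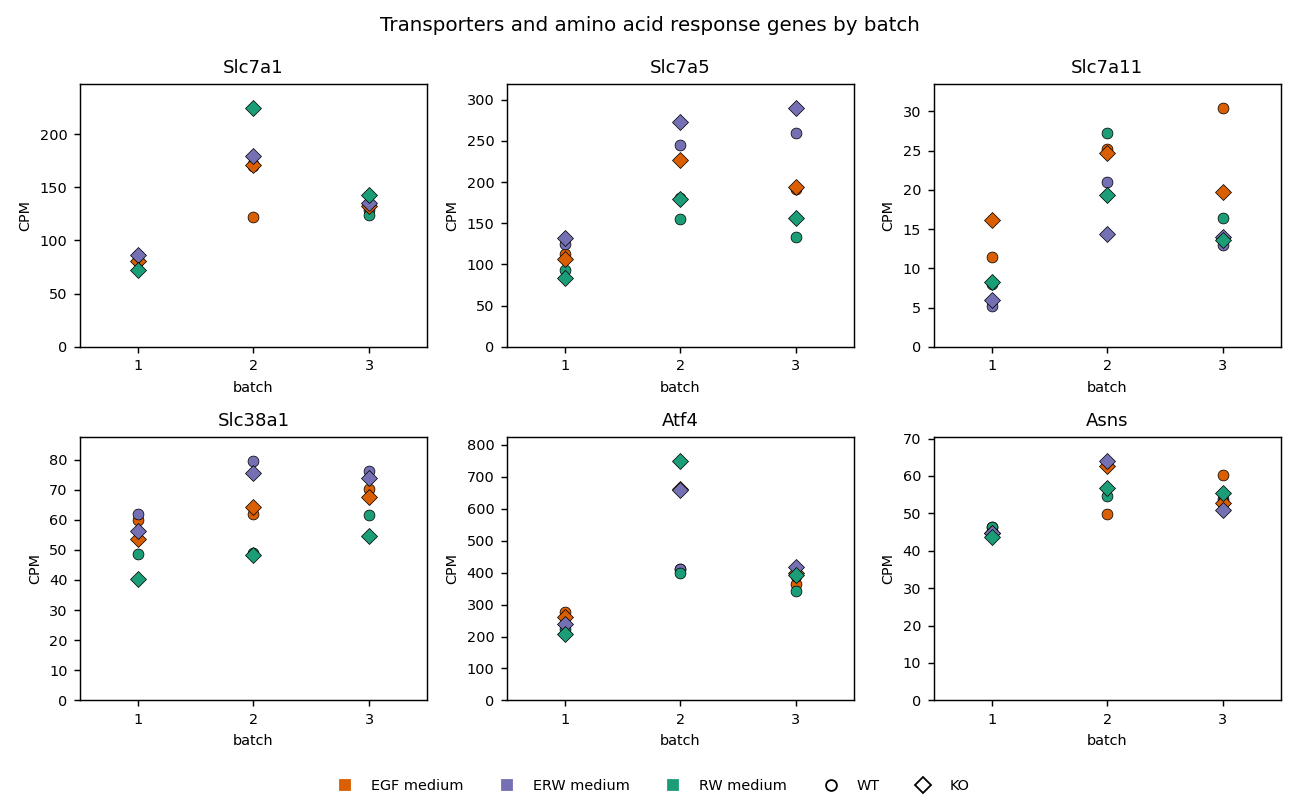
Level in CPM of 4 transporter genes and of Atf4 and Asns in each library, arranged by batch on a linear axis from 0; colours are media, circles WT and diamonds KO. All 6 batch 1 libraries of Slc7a1 lie below those of the other batches, and within a batch Slc7a5 is highest in ERW medium in both genotypes.

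Genes around the transporters were counted by list. Of 23 amino acid response genes, 4 rose and none fell in EGF against RW in WT and 4 rose and 1 fell in KO, with medians of 0.11 and 0.09 on the log2 scale. They include Trib3, an inhibitor of ATF4 (log2 1.11 ± 0.15 in WT and 0.95 ± 0.15 in KO), the lipoprotein receptor gene Vldlr (1.11 ± 0.26 and 1.02 ± 0.26) and the alanine transaminase gene Gpt2 (0.76 ± 0.12 and 0.45 ± 0.12), while Asns was not called (0.02 ± 0.09 and 0.04 ± 0.10). In ERW against RW 7 rose in each genotype and 0 and 1 fell, and in ERW against EGF 2 and 4 rose and 1 fell in each. Of 26 genes of amino acid sensing by mTORC1, 2 fell in EGF against RW in each genotype and none rose; Rragd, a Rag GTPase, was called in both (-0.85 ± 0.20 and -0.86 ± 0.20), and Sesn1, a leucine sensor family gene, in WT (-0.73 ± 0.19). In ERW 1 fell in WT and 3 in KO against RW, where 1 rose in KO, and 2 and 1 rose against EGF.

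Of 20 aminoacyl-tRNA synthetase genes, which load amino acids onto tRNA, 1 rose and 1 fell in EGF against RW in WT (Sars, 0.29 ± 0.06, and Iars, -0.20 ± 0.06), and 3 rose and 1 fell in KO. Against RW 2 and 4 rose in ERW, and against EGF 5 rose in each genotype and none fell, with medians of log2 0.09 to 0.10 in those 4 comparisons. Of 13 glutamine and glutamate enzymes, Gpt, an alanine transaminase, fell in EGF against RW (-1.66 ± 0.31 in WT and -1.52 ± 0.31 in KO) and Gfpt2, of hexosamine synthesis, rose in WT (0.75 ± 0.21). In ERW against RW 1 rose in WT, and 2 rose and 2 fell in KO; in ERW against EGF 2 and 3 rose and 2 and 1 fell. Of 14 glutathione and NRF2 genes, 2 rose and 2 fell in EGF against RW in WT and 3 and 2 in KO. They include Ggt1, which breaks down glutathione outside the cell (1.35 ± 0.31 in WT), the quinone reductase gene Nqo1 (1.13 ± 0.22) and the peroxidase gene Gpx2 (-0.73 ± 0.22). In ERW against EGF, where Slc7a11 fell, none of the 14 rose and 3 fell in each genotype (median log2 -0.15 in both), and in ERW against RW 4 and 3 fell and 0 and 1 rose.

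Of 13 genes of branched-chain amino acid breakdown, 1 rose in each comparison with ERW medium: Bckdk, a kinase that restrains the pathway, in WT and in KO ERW against EGF, and Bckdha in KO ERW against RW. Of 16 arginine and polyamine enzymes, Ass1, which makes argininosuccinate, rose in EGF against RW (1.83 ± 0.15 in WT and 1.92 ± 0.15 in KO) and Sat1, which acetylates polyamines, fell (-0.70 ± 0.11 and -0.77 ± 0.11); 2 rose in KO and 1 in WT. In ERW 4 and 3 rose and 2 fell against RW, and 4 and 1 rose and 3 and 1 fell against EGF. Arg1, the liver-type arginase, was among them (log2 2.01 ± 0.44 and 1.95 ± 0.44 against RW) and is named after its values were seen. Of 10 tested transporters of other families, the neutral amino acid carrier gene Slc6a15 (0.90 ± 0.22 in WT) and the peptide carrier gene Slc15a2 (0.81 ± 0.10) rose in EGF against RW and Slc6a14, a carrier of neutral and cationic amino acids, fell (-0.90 ± 0.26), with the same 3 calls in KO. In ERW against RW 3 rose in each genotype and 1 and 2 fell, and against EGF 1 rose and 2 and 3 fell. Without the batch term the calls on the amino acid response list came to 3 in EGF against RW in each genotype, to 1 and 0 in ERW against RW and to 0 in ERW against EGF, and those on the mTORC1, synthetase and branched-chain lists to 0.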

How the data were processed

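RNA from 18 organoid cultures was sequenced as single 50-base reads from 100 ng of RNA, per the labels' protocols. The authors deposited whole-number read counts per gene; STAR, DESeq2 and GRCm38 are named in the submitters' processing notes, with no versions. A second deposited table holds normalized values (a signal, equal to the count over 1 size factor per library in 100% of values within a relative 0.0005 plus 0.06), log2 values and the authors' log2 fold changes with adjusted p-values, per the file headers. Its normalized and log2 values served as checks. The comparisons here started from the deposited counts. Library totals ran from 24290097 to 31269899 counts.

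Counts were fitted with edgeR 4.0.16 (robust quasi-likelihood, TMM, R 4.3.3, limma 3.58.1) over all 18 libraries with group and batch as terms. filterByExpr (minimum count 10, minimum total 15) left 17092 genes. P-values were adjusted by the Benjamini-Hochberg method within each of 13 contrasts and called under 0.05. A standard error is the log2 change over the square root of its F statistic. CPM are counts per 1000000 with TMM library sizes, and lengths are summed exon bases. On simulated counts for WT EGF against RW (16657 genes), 46.3% of changes of 1.5-fold, 80.6% of 2-fold and 95.5% of 4-fold were recovered, with 9 false calls. There 67, 67 and 66 genes were changed, in WT EGF only and all above a minimum mean count. Batch effects had the form that the fit assumes. These rates need not hold for the members. DESeq2 1.42.0, RLE scaling, other filters, no batch term, and leaving out each library or batch were tried.

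The labels give each replicate number as a batch, so the numbers pair the libraries. Headers of the deposited comparisons used here name the condition and the groups compared. Deviations from group means correlated at 0.265 to 0.642 within a batch (45 pairs) and at -0.404 to 0.0312 between batches (90 pairs). Since each group of 3 was centred on its own mean, positive values within a batch push those between batches below 0. The between-batch values are therefore no separate evidence of pairing. Nothing says whether cultures of a batch came from separate mice. The p-values of the main fit measure the spread between these cultures that is left after batch differences are taken out. Values in every library are given for members called with an absolute log2 change of at least 1 and a mean of at least 1 CPM, and for Slc3a2, Slc7a5 and Slc7a11. In each pathway list up to 3 called genes of largest change in WT EGF against RW are named, with Atf4 and Asns. Other names were chosen after their values were seen. The members and lists were chosen with earlier results of these data known. RefSeq promoters (GRCm38.p6) were matched by symbol.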

Additional observations from a re-analysis of the deposited data

How the results depend on the processing

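The 46 calls of members between media all held with DESeq2, with RLE scaling and with a filter of at least 1 CPM in 3 libraries, and 40 held with no filter on low counts. Among the 15 members called in the main fit and Slc3a2, DESeq2 added 6 calls and the 1 CPM filter added 1. Over all 31 tested members DESeq2 called 10, 11 and 8 in EGF against RW, ERW against RW and ERW against EGF in WT. In KO it called 9, 9 and 7. With no replicate block, that is without the batch term, 6 held: the members called came to 2, 1 and 0 in EGF against RW, ERW against RW and ERW against EGF in WT, and to 2, 1 and 0 in KO. No direction of a call reversed. Leaving out each library or batch in turn gave 3 to 9 members called in EGF against RW, 4 to 9 in ERW against RW and 0 to 8 in ERW against EGF in WT, and 2 to 9, 5 to 10 and 0 to 7 in KO. The 0 in ERW against EGF came in both genotypes without batch 3. Between genotypes over the media the count was 0 to 1, the 1 being Slc38a2 without batch 1, and within media and for the response to media it was 0. A lone left-out library leaves 2 in its group, and a left-out batch 2 in every group. Shares of all genes called under these other settings are not given here, so the counts do not set the members apart from other genes. The cause of the lost calls was not tested. Depth limits members of few counts, such as Slc3a1 with 132 and Slc38a5 with 147 over the 18 libraries.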
